A study of Mus musculus with 5 samples.

Results

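The genes described here are the replication-dependent histone genes, read in mammary epithelial cells of 4-week-old mice with and without an epithelial deletion of Mmp14, which encodes a membrane-anchored matrix metalloproteinase. Members were chosen by symbol from the platform annotation, which names them in the newer style (H1f1 to H1f6, H2ac, H2bc, H3c and H4c), and only probe sets that list 1 gene were used. This gave 26 of the 22180 genes tested, namely 5 linker H1, 6 H2A, 8 H2B and 7 H4 genes. The annotation names 63 such genes in all. The other 37, among them all 12 H3 genes, are listed only on probe sets shared by several genes and are described separately. H2ac21 has 2 probe sets, and the one with the higher mean over the 5 arrays was kept.

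Histones package DNA into nucleosomes, each with H2A, H2B, H3 and H4 wrapped by DNA and a linker H1 at its edge. The replication-dependent genes lie in clusters, are transcribed mainly in S phase, when new chromatin has to be assembled, and give messages that end in a stem-loop bound by SLBP in place of a poly(A) tail. Their message level is therefore commonly read beside that of DNA replication and division genes. In the mammary gland of a 4-week-old mouse the ducts are beginning their pubertal growth, in which the epithelium divides.

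The data are 5 Affymetrix arrays. The 2 knockout arrays came from MMTV-Cre+/Mmp14(f/f) mice, in which Cre is driven by the MMTV promoter, and the 3 wild-type arrays from Mmp14(f/f) littermates, which carry the floxed alleles without Cre. All mice were congenic FVB/NJ, 4 weeks old. Cells came from inguinal glands freed of lymph node, digested with collagenase and spun to remove stroma, and 10 ng of total RNA was labelled per array with a whole-transcript kit. The controls carry no Cre, so Cre itself and the deletion cannot be told apart, and the labels do not say whether an array holds 1 mouse or a pool. P-values therefore measure the spread between these samples. Values are log2 signals. Means are given ± SD (knockout n = 2, wild type n = 3), and differences are knockout minus wild type.

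All 8 measured luminal markers had a mean at or above the 40th percentile of all gene means, from Elf5 at 5.03 to 5.42 up to Krt8 at 11.3 to 11.5. So did 4 of 5 myoepithelial markers, among them Krt14 at 8.96 to 9.29, and Oxtr at 3.44 to 4.15 did not. All 5 fibroblast markers also did, with Col1a2 at 10.5 to 10.9 and Dcn at 10.2 to 10.7. The 3 adipocyte markers differed widely. Fabp4 lay at 10.5 to 11.3, but Adipoq lay at 4.54 to 4.77 and Plin1 at 4.07 to 4.09. Mmp14 read 7.98 and 7.28 on the knockout arrays and 8.15, 8.67 and 7.75 on the wild-type arrays. Its groups overlapped, and limma gave -0.56 ± 0.39 (SE) an adjusted p of 0.919. No source at hand gives the place of its probes relative to the floxed part, so this does not check the labels. The array numbers in the labels fall into 2 consecutive runs. Knockout 1 shares run 1 with wild type 1 and 2. Knockout 2 shares run 2 with wild type 3. Within-run differences are given because run 2 has 1 array of each genotype. For Mmp14 they were -0.43 in run 1 and -0.46 in run 2. With 1 array left out its difference ran from -0.91 to -0.21.

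Promoter sequences of the members that the results below turn on are shown first, because a reader can see in them how the classes differ. Of the 26 members, 24 had an entry in the RefSeq promoter table (build GRCm38.p6), and H2bc21 and H4c14 had none. The 150 bases before the annotated start were searched on both strands for CCAAT, the element bound by NF-Y, for TATAAA, the TATA box, for ATTTGCAT, the octamer of H2B promoters bound by OCT1, and for AAACACA, the distal element known from H1 promoters. No 2 matches overlapped in these members. Capitals mark the matches on either strand, with the sequence 5′ to 3′ along the gene.
H1f5, chr13:21780626-21780775, minus strand: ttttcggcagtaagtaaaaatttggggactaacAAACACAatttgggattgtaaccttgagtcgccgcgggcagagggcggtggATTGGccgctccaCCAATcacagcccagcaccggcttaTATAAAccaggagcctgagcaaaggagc
H1f2, chr13:23738657-23738806, plus strand: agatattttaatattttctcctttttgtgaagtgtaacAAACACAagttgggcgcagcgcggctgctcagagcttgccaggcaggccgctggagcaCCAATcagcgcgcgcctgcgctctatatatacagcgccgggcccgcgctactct
H1f3, chr13:23554882-23555031, plus strand: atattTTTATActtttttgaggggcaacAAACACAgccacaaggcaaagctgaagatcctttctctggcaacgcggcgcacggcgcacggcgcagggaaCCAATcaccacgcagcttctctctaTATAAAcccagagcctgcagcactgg
H2bc3, chr13:23746584-23746733, plus strand: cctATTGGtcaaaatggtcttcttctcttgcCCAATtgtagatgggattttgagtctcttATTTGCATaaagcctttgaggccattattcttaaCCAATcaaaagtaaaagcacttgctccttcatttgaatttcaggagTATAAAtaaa
H2bc18, chr3:96269550-96269699, plus strand: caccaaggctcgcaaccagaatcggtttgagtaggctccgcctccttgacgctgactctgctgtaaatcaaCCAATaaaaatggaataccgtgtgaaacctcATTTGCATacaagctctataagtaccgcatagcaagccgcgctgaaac
H2ac21, chr3:96219735-96219884, plus strand: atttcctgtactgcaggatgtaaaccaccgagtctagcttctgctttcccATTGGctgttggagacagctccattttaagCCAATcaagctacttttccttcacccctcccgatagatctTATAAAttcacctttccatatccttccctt
H4c12, chr13:21750554-21750703, minus strand: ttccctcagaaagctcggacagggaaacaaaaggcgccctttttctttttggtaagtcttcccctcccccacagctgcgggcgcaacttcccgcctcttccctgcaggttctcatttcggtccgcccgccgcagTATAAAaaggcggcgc

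The 3 linker histone promoters share AAACACA, which begins 117 bases before the start in H1f5, 112 in H1f2 and 122 in H1f3, and CCAAT nearer the gene, beginning 53, 54 and 51 bases before it. AAACACA was found in 4 of the 5 H1 promoters (H1f1 lacked it), in 2 of 7 H2B promoters and in none of 6 H2A or 6 H4 promoters, against 3.53% of all 32851 promoters in the table. The octamer ATTTGCAT was found in 4 of 7 H2B promoters (H2bc3, H2bc12, H2bc14 and H2bc18) and, of the other members, in H2ac1, against 0.998% of all promoters. CCAAT was present in all 5 H1, 6 H2A and 7 H2B promoters, but in 1 of 6 H4 promoters (H4c1), against 24.5% of all promoters. TATAAA was present in 11 of the 24 members and in 7.57% of all promoters. In the promoters shown, TATAAA began 28 bases before the start in H1f5, 26 in H1f3 and 30 in H2ac21. It also began 10 bases before it in H2bc3, 16 in H4c12 and, on the reverse strand, 145 in H1f3. Matches are a description of these letters at any place in this window, so a TATAAA match need not be a TATA box.

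Of the 26 histone genes, 0 passed limma's test between the genotypes at an adjusted p of 0.05, and 0 of all 22180 genes did (0%). Before adjustment none of the members had a limma p under 0.05, which 1.3% of all genes had. The smallest unadjusted p among the members was 0.121, for H4c12, and the adjusted p of the members lay between 0.919 and 1. The knockout mean was higher for 13 members and lower for 13, with a median difference of -0.00080, and the median over all genes tested was 0. For no member did the knockout arrays lie wholly above or wholly below the wild-type arrays, a separation seen for 2.63% of all genes upward and 2.8% downward.

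What the arrays did show is a wide spread inside the knockout group for some histone genes. On knockout 1 the members lay on average 0.15 above the wild-type mean and on knockout 2 they lay 0.19 below it, while wild type 1, 2 and 3 stood at 0.043, 0.026 and -0.069. The medians over the same members were 0.013 on knockout 1 and -0.0037 on knockout 2, and knockout 2 lay below knockout 1 for 13 of the 26, so the averages rest on the widest genes, such as H1f5, H2ac21 and H1f2. For 8 of the 26 members (30.8%) knockout 1 was the highest and knockout 2 the lowest of the 5 arrays. Over all genes this order held for 7.52%. It held for 11.3% of genes at or above the 40th percentile of all gene means, where it held for 8 of 15 members (53.3%). Among all genes with 5 different values it held for 11.6%. The 8 genes were H1f1, H1f2, H1f3, H1f5, H2ac10, H2ac21, H2bc3 and H2bc18, and their signal on knockout 1 exceeded that on knockout 2 by 0.17 to 2.29. This order describes the arrays and was noted after the values were seen. It says nothing about the genotype, since both arrays carry the same label. Fewer cells of a type and less RNA per cell cannot be told apart in such bulk samples.

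**Figure D1:**
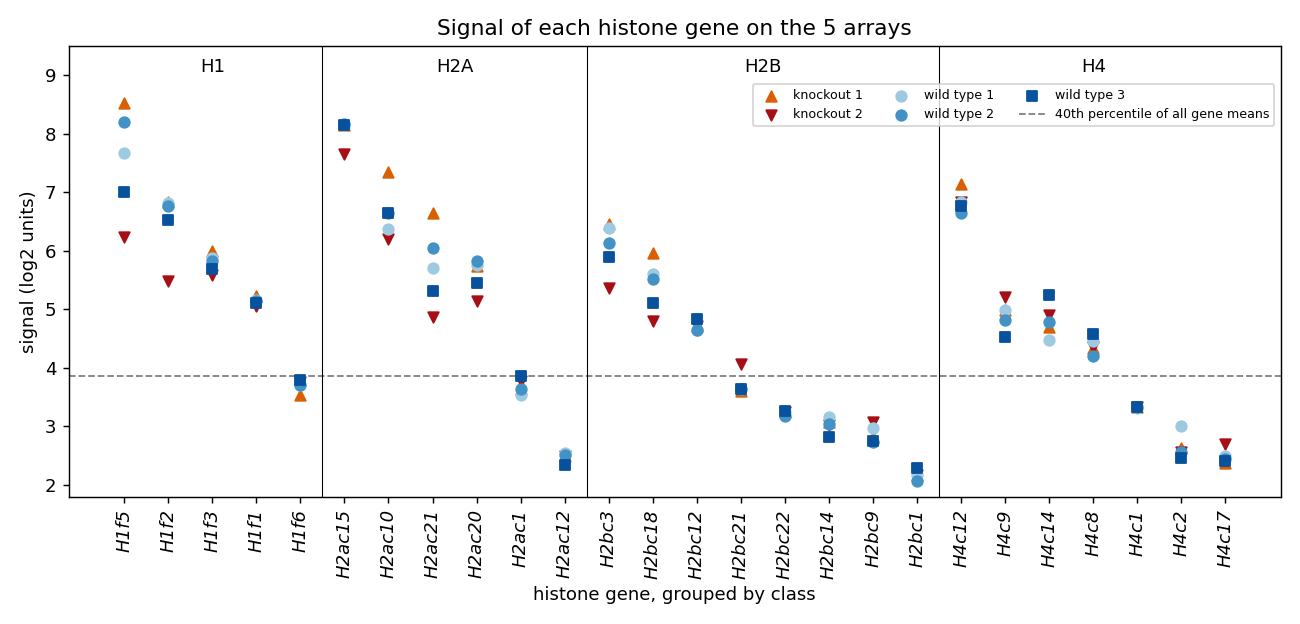
Signal (log2 units, vertical axis) of the 26 histone genes on each of the 5 arrays, grouped by class and ordered within a class by mean, with the 40th percentile of all gene means (3.86) as a dashed line. In H1f5, H2ac21, H2bc3 and H2bc18 the triangles of knockout 1 and knockout 2 enclose the wild-type points, with knockout 1 on top. No H4 gene has that order, and in H4c17 the triangles enclose the wild type the other way round.

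The linker histones bind the DNA entering and leaving the nucleosome. H1f5 and H1f2 had wide ranges over the arrays, and the other 3 ranged over 0.17 to 0.40. H1f5 (formerly Hist1h1b, probe set 17291005) read 8.53 and 6.24 on the knockout arrays and 7.67, 8.20 and 6.997 on the wild-type arrays. The 2 knockout arrays therefore enclosed all 3 wild-type arrays and stood 4.88-fold apart. The means were 7.38 ± 1.62 and 7.62 ± 0.60. Their difference was -0.24 ± 0.86 (SE; limma adjusted p = 0.996) and turned to 0.90 without knockout 2, to 0.049 without wild type 2 and to 0.014 with the run as a block.

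H1f2 (formerly Hist1h1c, probe set 17285859) read 6.83 and 5.48 in the knockout and 6.82, 6.76 and 6.53 in the wild type. Here knockout 2 alone stood apart, and knockout 1 lay with the wild type. The difference of -0.55 ± 0.46 (SE; limma adjusted p = 0.919) was the only one of the 26 that reached 0.5 log2 units, a size that 0.586% of all genes reached. It was 0.12 without knockout 2, and it was 0.038 within run 1 and -1.05 within run 2.

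H1f3 read 5.995 and 5.59 against 5.87, 5.83 and 5.69, and H1f1 read 5.22 and 5.06 against 5.16, 5.14 and 5.12. Both repeat the order of H1f5 over ranges of 0.40 and 0.17. H1f6, the linker histone of male germ cells, read 3.53 and 3.75 against 3.71, 3.71 and 3.80, with knockout 1 lowest (difference -0.096 ± 0.084, SE; limma adjusted p = 0.919). Of the 5 linker genes, 4 had a lower knockout mean, with a median of -0.096. Averaged over these 5 genes, knockout 1 stood 0.22 above the wild-type mean and knockout 2 stood 0.58 below it, with the wild-type arrays between -0.17 and 0.13.

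The H2A genes encode the core histone that pairs with H2B. H2ac21 (formerly Hist2h2ab, probe set 17400539) read 6.64 and 4.87 in the knockout and 5.71, 6.04 and 5.31 in the wild type. As for H1f5, the knockout arrays lay on either side of the wild type, 3.41-fold apart, and the means of 5.76 ± 1.25 and 5.69 ± 0.36 nearly coincided. The second probe set of H2ac21, with a mean of 3.06, ran from 2.91 to 3.20 and did not show that order. H2ac10 read 7.34 and 6.21 against 6.37, 6.65 and 6.65, with knockout 1 well above the other 4 arrays. Its difference was 0.21 ± 0.39 (SE; limma adjusted p = 0.943) and turned to -0.35 without knockout 1.

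H2ac15 (probe set 17291001) read 8.15 and 7.65 against 8.15, 8.17 and 8.15. Knockout 1, wild type 1 and wild type 3 held the same value, wild type 2 lay just above it and knockout 2 well below it. Its difference of -0.25 ± 0.17 (SE; limma adjusted p = 0.919) became -0.50 without knockout 1 and -0.0050 without knockout 2. In the fit without knockout 1 the 3 wild-type arrays, of which 2 hold the same value to 6 decimals, set the spread. The lone knockout array was assumed to vary like them, so only the difference is given. H2ac20 read 5.74 and 5.14 against 5.75, 5.83 and 5.45, with run 2 lower than run 1 in both genotypes. H2ac12, listed next to H2bc12, read 2.49 on both knockout arrays and 2.35 to 2.55 in the wild type. The 6 H2A genes had a median difference of 0.022, with 4 higher and 2 lower in the mean.

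H2B, the partner of H2A, had the octamer in most of its promoters. H2bc3 (formerly Hist1h2bb, probe set 17285863) read 6.46 and 5.37 in the knockout and 6.39, 6.14 and 5.89 in the wild type. H2bc18 (formerly Hist2h2bb, probe set 17400562) read 5.96 and 4.803 against 5.61, 5.51 and 5.10. In both genes knockout 1 was highest, knockout 2 lowest and wild type 3 the lowest wild-type array, so the arrays of run 2 lay under those of run 1. The difference of H2bc3 was -0.23 ± 0.40 (SE; limma adjusted p = 0.939), with 0.19 within run 1 and -0.52 within run 2. That of H2bc18 was -0.028 ± 0.43 (SE; limma adjusted p = 1), with 0.40 within run 1 and -0.30 within run 2.

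Other H2B genes did not follow these. H2bc12 and H2bc14 also hold the octamer, and H2bc12 ran from 4.65 to 4.83 and H2bc14 from 2.81 to 3.15 over the 5 arrays. H2bc21 read 3.61 and 4.07 against a single value of 3.65 on all wild-type arrays. The difference was 0.20 ± 0.15 (SE; limma adjusted p = 0.919). Without knockout 1 the difference was 0.42 and without knockout 2 it was -0.033, with a wild-type group that has no spread at all. H2bc9 read 2.81 and 3.08 against 2.97, 2.74 and 2.76, and H2bc22 stayed between 3.19 and 3.26. The 8 H2B genes had a median difference of 0.0031, with 4 higher and 4 lower.

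The H4 genes, which encode the histone that pairs with H3, were the class in which knockout 2 was lowest for none. H4c12 (formerly Hist1h4k, probe set 17290999) read 7.14 and 6.84 in the knockout and 6.84, 6.65 and 6.76 in the wild type. Knockout 1 was highest, and knockout 2 equalled wild type 1 to 2 decimals. The difference was 0.24 ± 0.12 (SE; limma adjusted p = 0.919), with 0.39 within run 1 and 0.076 within run 2. H4c9 read 4.98 and 5.20 against 4.99, 4.82 and 4.52. Its 0.32 ± 0.18 (SE; limma adjusted p = 0.919) was the highest difference of the 26. Here knockout 2 was the highest array and wild type 3 the lowest.

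H4c14, the H4 gene of the Hist2 cluster, read 4.70 and 4.90 against 4.47, 4.79 and 5.25, so wild type 1 and wild type 3 were the ends of its range. H4c8 lay between 4.21 and 4.58, H4c17 between 2.38 and 2.71 and H4c2 between 2.47 and 3.01. H4c1 held the same value of 3.33 on 4 arrays. The 7 H4 genes had a median difference of 0.0042, with 4 higher and 3 lower.

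The male germ cell forms H2ac1 and H2bc1 lie head to head, and their promoter windows in the RefSeq table share 220 bases. H2ac1 read 3.63 and 3.78 against 3.53, 3.64 and 3.86, and H2bc1 read 2.17 on both knockout arrays and 2.17, 2.06 and 2.28 in the wild type. H2ac12 and H2bc12 share 277 bases of their windows, and their differences were 0.015 and -0.0035. Signals on this array have no detection calls, so a low signal cannot be told from background. Of the 26 members, 15 had a mean at or above the 40th percentile of all genes (3.86 log2 units), and the 8 genes with knockout 1 highest and knockout 2 lowest were among these 15. All 4 measured male germ cell markers (Prm1, Tnp1, Ddx4 and Dazl) were averaged too, and the list ran from 3.43 to 3.48 over the arrays.

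Within-run differences varied with class and signal. Knockout 1 lay above the mean of wild type 1 and 2 for 17 of 26 members (44% of all genes), with a median of 0.042. Knockout 2 lay below wild type 3 for 17 of 26 (42.4% of all genes), with a median of -0.089, from 1 array per genotype. Both held for 14 of 26 members (20.8% of all genes), namely 4 H1, 3 H2A, 5 H2B and 2 H4 genes. The 11 members under the 40th percentile had medians of the other sign, -0.033 in run 1 and 0.10 in run 2. By class the medians were 0.074 in run 1 and -0.099 in run 2 for H1, 0.019 and -0.37 for H2A, 0.039 and -0.070 for H2B, and 0.0063 and 0.076 for H4. Over all genes tested both medians were 0. Ties lower the all-gene shares. Of the 6930 genes with 5 different values, 3479 were higher in run 1 and 3527 lower in run 2. What a run stands for is not given in the labels, and its part in these values was not tested.

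**Figure D2:**
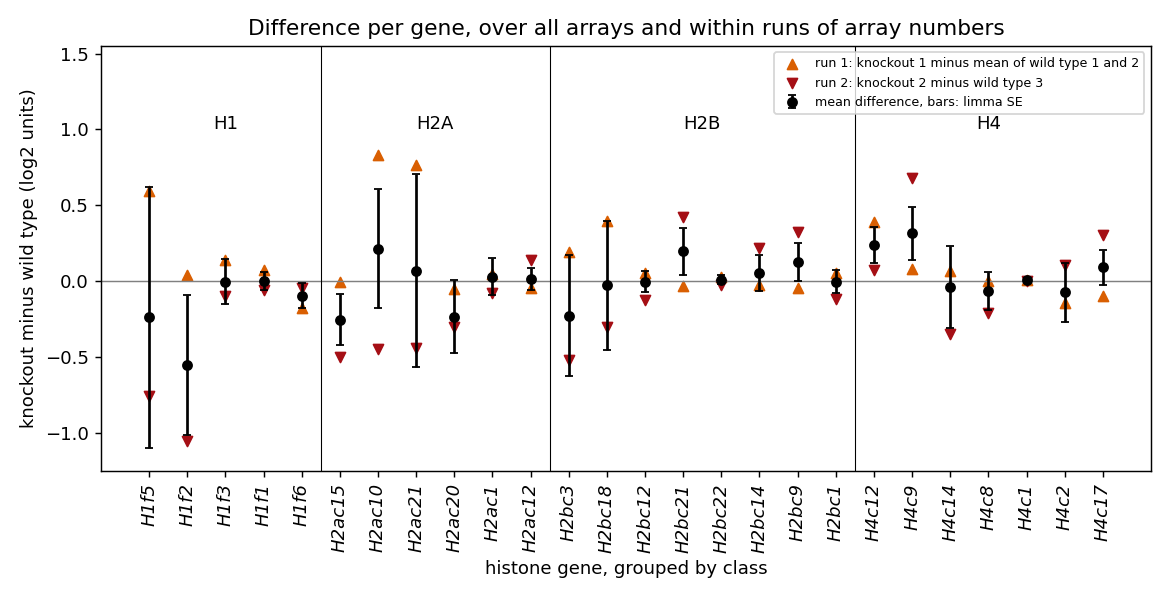
Knockout minus wild type (log2 units, vertical axis) for each histone gene, with black points for the difference over all arrays and bars for limma's SE, and coloured triangles for the differences within run 1 and run 2. For H1f5, H2ac10, H2ac21, H2bc3 and H2bc18 the run 1 value is above 0 and the run 2 value below 0, and the black bars cross 0.

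Many probe sets hold values that are equal between arrays. Of the members, 16 of 26 (61.5%) had 5 different values to 6 decimals, against 31.2% of all genes. Knockout 1 and knockout 2 held the same value for 5 members (H2ac12, H2bc1, H2bc12, H2bc22 and H4c1). The median SD over the 5 arrays was 0.17 for the members and 0.085 for all genes, many of which hold such ties. For all genes with 5 different values it was 0.15. At or above the 40th percentile of all gene means it was 0.29 for the members and 0.10 for all genes.

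The coding sequences of many core histone genes are near-identical within a class, so a probe can read several genes. The annotation lists 37 probe sets that carry more than 1 symbol and at least 1 of these genes. Of these, 6 hold values identical to another set, in pairs, which leaves 34 distinct sets. Among the 34, knockout 2 was lowest in 13, knockout 1 highest in 16, and both at once in 8. These sets are no independent repeat of the 26, since they can read the same messages on the same arrays.

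The widest difference was in a set that lists 10 H2A genes and begins with H2ac4 (probe set 17285867), which read 6.13 and 4.08 in the knockout and 6.06, 6.19 and 5.95 in the wild type. Knockout 2 stood apart by itself, below the other 4 arrays. A set of H2bc8, H2bc6 and H2bc4 (probe set 17285834) read 9.25 and 7.81 against 9.21, 9.15 and 8.74, with the same array low. All 7 distinct H2B sets had a lower knockout mean, with a median of -0.21, and in 5 of them knockout 1 was highest and knockout 2 lowest.

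H3, whose tail carries many of the known chromatin marks, could be read only on 12 shared sets. Their median difference was 0.0092, with 7 higher and 5 lower, and knockout 2 was lowest in 2. A set of 8 H3 genes that begins with H3c15 (probe set 17400555) read 7.91 and 7.76 against 7.73, 7.98 and 7.63, with overlapping groups. Another set of 8 H3 genes (probe set 17291183) read 6.53 and 5.65 against 6.94, 6.43 and 6.02, with knockout 2 and wild type 3, the arrays of run 2, lowest. The 5 H4 sets had a median of 0.17, and knockout 2 was lowest in 1.

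**Figure D3:**
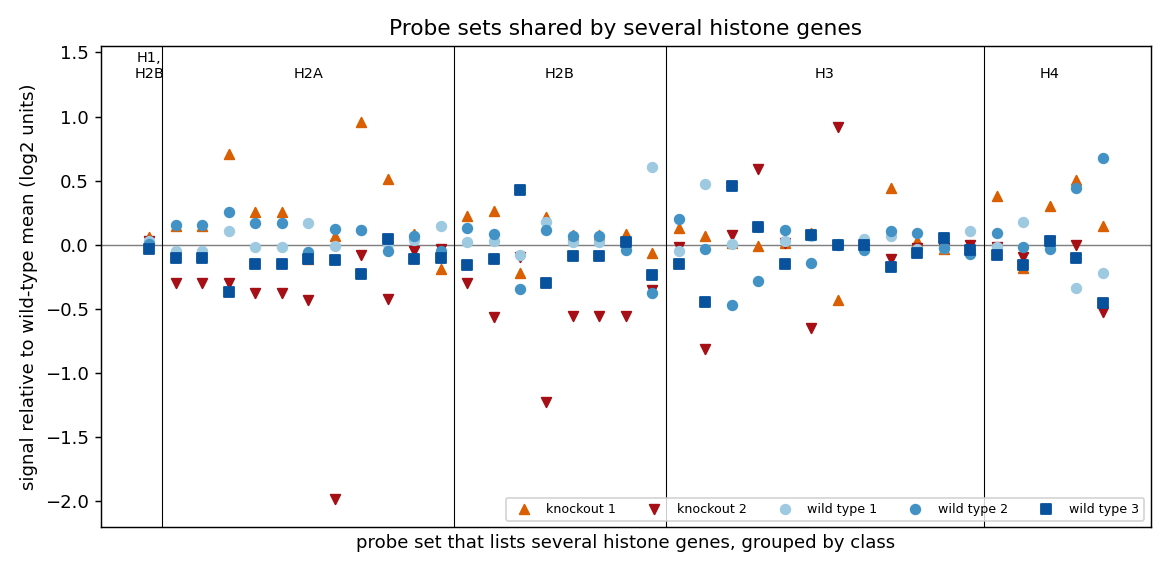
Signal relative to the wild-type mean (log2 units, vertical axis) of the 37 probe sets that list several genes, grouped by class, with a point for each of the 5 arrays. Knockout 2 lies below the wild-type mean in every set of the H2A and H2B groups, but not in the mixed set of H1 and H2B genes. The lowest point belongs to the set of 10 H2A genes.

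Genes that act with the histone genes were taken from lists chosen by function. The transcription list holds NPAT, the coactivator of histone loci, and factors of the G1 to S transition. Of its 14 measured genes of 16, 4 were higher and 10 lower in the mean (median -0.054), and 0 passed limma's test. Npat itself read 7.44 and 7.43 against 7.44, 7.44 and 7.46. Yy1, a zinc finger factor, read 8.38 and 8.36 against 8.48, 8.42 and 8.43. Its groups did not overlap, as for 2.8% of all genes in this direction, and -0.072 ± 0.025 (SE) had a limma adjusted p of 0.919. Cdc25a, a phosphatase that activates CDK2, stood at 0.25 ± 0.14 (SE) and Coil, the Cajal body protein coilin, at -0.089 ± 0.051.

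The processing list covers the machinery that cuts histone messages, and also factors of their cap, translation and decay, among them Ncbp1, Mif4gd and Eri1. Of its 22 measured genes of 23, 14 were higher and 8 lower (median 0.019) and 0 passed the test. Slbp, whose protein binds the stem-loop, read 7.52 and 7.52 against 7.55, 7.52 and 7.51, a difference of -0.0073 ± 0.018 (SE). Lsm10, a subunit of the U7 ring, read 5.01 and 4.76 against 5.33, 5.01 and 5.12. Casp8ap2 read 6.41 and 6.55 against 6.57, 6.60 and 6.75, with no overlap (2.8% of all genes downward). Cstf1 stood at 0.14 ± 0.11 (SE), higher with no overlap (2.63% of all genes upward). Cstf2, a cleavage factor, stood at -0.16 ± 0.11 (SE).

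Chaperones carry new histones to DNA. Of 24 measured of 26, 8 were higher and 16 lower (median -0.022), and 0 passed the test. Dnajc9, a histone-binding co-chaperone, read 6.53 and 6.28 against 6.62, 6.63 and 6.62, or -0.22 ± 0.085 (SE; limma adjusted p = 0.919) with no overlap. Nap1l1 stood at -0.054 ± 0.016 (SE), also with no overlap, and Daxx, which places H3.3, at 0.21 ± 0.12. A downward separation of this kind was seen for 2.8% of all genes. The replacement histones, made outside S phase too, had 11 measured of 14, with 5 higher and 6 lower (median -0.017) and 0 past the test. Among them H2ax, the variant phosphorylated at DNA breaks, read 8.35 and 7.42 against 7.86, 8.34 and 7.42. Knockout 1 and wild type 2 were high and both arrays of run 2 low. Hils1 stood at -0.13 ± 0.079, Macroh2a2 at 0.060 ± 0.037 and H1f7 at -0.16 ± 0.13 (SE), with overlapping groups.

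On the same arrays the cell cycle lists were also lowest on knockout 2. The 36 measured S phase genes of 38 lay 0.034 above the wild-type mean on knockout 1 and 0.26 below it on knockout 2, with the wild-type arrays at 0.053, -0.036 and -0.017. Of them 5 were higher and 31 lower (median -0.087), with 0 past the test. Mcm3, a helicase subunit, stood at -0.18 ± 0.11 (SE), Gins3 at -0.42 ± 0.22 and Tk1, thymidine kinase, at 0.058 ± 0.034. The 24 measured mitosis genes of 25 stood at 0.18 on knockout 1 and -0.53 on knockout 2, with the wild type at 0.049, 0.014 and -0.063. Here 4 were higher and 20 lower (median -0.097), with 0 past the test.

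Of the mitosis genes, Top2a, the topoisomerase that untangles sister chromatids, read 6.75 and 5.49 against 6.54, 6.52 and 6.52. Cdk1, the mitotic kinase, read 6.23 and 4.76 against 5.77, 5.79 and 5.73. Both hold the order of H1f5, with knockout 1 highest and knockout 2 lowest, and both are named after their values were seen. In the whole mitosis list knockout 2 was lowest for 22 of 24 genes and knockout 1 highest for 16. In the S phase list these counts were 27 and 11 of 36, and among the histone members 10 and 9 of 26. Over all genes the shares were 22.5% and 17%. These array positions are thus not particular to the histone genes. Kif11 stood at -0.31 ± 0.20 (SE), Birc5 at -0.13 ± 0.082 and Cenpf at 0.11 ± 0.072. The part of these genes in the histone values was not tested.

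**Figure D4:**
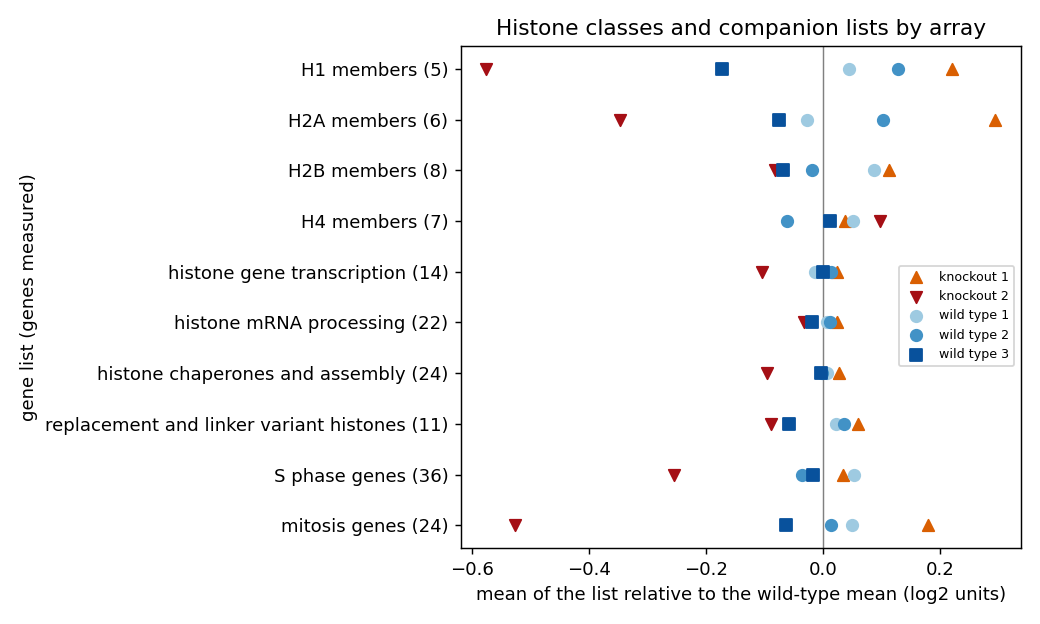
Mean of each histone class and companion list relative to its wild-type mean (log2 units, horizontal axis), with a point for each of the 5 arrays and the number of genes measured in brackets. Knockout 2 lies at -0.58 for H1, -0.35 for H2A and -0.53 for the mitosis genes, and at 0.097 for H4.

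Markers of the cell types of the gland were read on the same arrays. Given as list means relative to the wild type on knockout 1 and knockout 2, the 8 luminal genes stood at 0.055 and -0.11, the 5 myoepithelial genes at -0.013 and 0.30, the 5 fibroblast genes at 0.16 and 0.22, and the 5 endothelial genes at -0.58 and 0.24. The 4 macrophage genes stood at -0.082 and -0.19, the 5 B and T cell genes at -0.50 and -0.37, and the 3 adipocyte genes at -0.14 and 0.13. The adipocyte mean rests on Fabp4 (-0.42 and 0.40), while Adipoq stood at -0.0057 and Plin1 at 0.0074 on both knockout arrays. The myoepithelial medians were 0.086 and 0.20. Myh11 stood at -0.59 and 0.57 and Oxtr at 0.0089 and 0.67. Krt14 stood at 0.16 and 0.031, Trp63 at 0.27 and 0.0014 and Acta2 at 0.086 and 0.20. The fibroblast medians were 0.061 and 0.29, and Pdgfra stood at 0.68 and -0.47. The mean B and T cell signal was 4.31 and 4.45 in the knockout and 4.49 to 5.32 in the wild type, and the mean endothelial signal was 6.35 and 7.17 against 6.76 to 7.17. None of the 4 listed erythroid markers had a probe set of its own. The part of these cells in the histone values was not tested.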

How the data were processed

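The authors deposited log2 signals per probe set. Per the submitters' processing notes RMA and limma were used, with no version stated. The array's library file and its genome build have no statement in the labels or files. Of 41345 probe sets, the platform annotation names 1 gene for 23521, several for 1814 and none here for 16010. Each of 22180 genes was read on its single-gene probe set of highest average signal. Array medians lay between 4.24 and 4.29.

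Genotypes were compared in R 4.3.3 by limma 3.58.1 (functions lmFit and eBayes, 2 against 3 arrays, no covariate), with Benjamini-Hochberg adjustment over all genes and a threshold of 0.05. The procedure was tested on simulated data. Lists are described by counts and medians, with no list test. Older list symbols were looked up as synonyms in the RefSeq table of GRCm38.p6. Members and lists were chosen with earlier results of these data known. Genes were named by a rule: in each class the 2 with the largest moderated t and the 2 with the highest mean, members with values equal to another's (none had), members at an unadjusted p under 0.05 or a difference of 0.5, and up to 3 per companion list, with Mmp14, Npat and Slbp. Other genes were named after their values were seen. Alternatives covered scaling, blocks, weights, low signal, probe set choice and each array left out. The number of arrays limits the precision.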

Additional observations from a re-analysis of the deposited data

How the results depend on the processing

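Across the alternatives that kept all 5 arrays, limma called 0 of the 26 histone genes and 0 of all genes, including an adjusted p under 0.10 for the members and a fit of genes with 5 different values. Leaving out 1 array gave 0 to 2 histone genes (2 without knockout 1, H2ac15 and H2bc21) and 0 to 1757 of all genes (1757 without knockout 1 and 835 without knockout 2). The fits without knockout 1 or without knockout 2 leave 1 knockout array, so the spread within groups comes from the 3 wild-type arrays alone. For 2834 of all genes these 3 arrays hold the same value. The calls of these fits, those of H2ac15 and H2bc21 included, therefore cannot decide whether the genotypes differ. Medians with 1 array left out ran from -0.21 to 0.12 for H1, -0.43 to 0.040 for H2A and -0.040 to 0.092 for H4. They ran from -0.0063 to 0.017 for histone mRNA processing, -0.057 to -0.023 for histone gene transcription, -0.047 to 0.016 for chaperones, -0.040 to 0.017 for replacement histones, -0.20 to 0.0010 for S phase genes and -0.35 to 0.19 for mitosis genes. Within runs the member median was 0.042 in run 1 and -0.089 in run 2. H1 was 0.074 in run 1, and in run 2 H2A was -0.37, H2B -0.070 and H4 0.076. Without genes under the 40th percentile H4 was 0.099, from fewer genes (4). The labels give replicate numbers with nothing that ties equal numbers together. Wild type 3 has a number that no other array has, so a replicate block takes it out of the comparison. The block therefore gave the same values as leaving out wild type 3, with medians of 0.068 for H4 and -0.027 for histone gene transcription. The main fit gave 0.0042 and -0.054, and no call changed. A fixed block for the run gave a replacement histone median of 0.014, 0.014 for H1f5 and 0.098 for H2bc18. With the probe sets of a gene averaged, Coil was 0.0054. Apart from the replicate block, the cause of these changes in medians and differences was not tested.

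Differences of named genes that changed sign with 1 array left out ran from -1.23 to 0.12 for H1f2, -0.21 to 0.016 for H1f6, -1.38 to 0.90 for H1f5, -0.53 to 0.065 for H2ac20, -0.35 to 0.78 for H2ac10, -0.033 to 0.42 for H2bc21, -0.011 to 0.26 for H2bc9, -0.77 to 0.32 for H2bc3, -0.61 to 0.55 for H2bc18 and -0.015 to 0.0039 for Slbp. The number of members with knockout 1 highest and knockout 2 lowest was 8, and, in alternatives chosen after seeing the data, 7 with quantile normalisation, 8 with median centring, 7 of the 16 with 5 different values, 8 with averaged probe sets and 18 of 63 with the 37 shared sets added. That last count takes sets with identical values separately, and among the 34 distinct shared sets 8 had the order.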

Other observations

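Within H3, whose genes have no probe set of their own, the 12 shared sets disagreed on the array order. A set of H3c1, H3c11, H3c10 and H3c8 (probe set 17291233) read 2.47 and 3.82 on the knockout arrays against 2.91, 2.90 and 2.90. The knockout arrays were thus the lowest and the highest of the 5, in the opposite order to H1f5. All 5 values of this set lay under the 40th percentile of all gene means (3.86), where signal cannot be told from background. A set of 8 H3 genes (probe set 17285842) read 4.17 and 3.43 against 4.15, 3.94 and 4.15, with knockout 2 lowest.

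Of the 8 members with knockout 1 highest and knockout 2 lowest, 8 held CCAAT in the 150 bases before the start, as did 11 of the other 16 members with a promoter entry. TATAAA was found in 5 of the 8 and 6 of the 16, AAACACA in 3 and 3, and ATTTGCAT in 2 and 3. CCAAT was present in all H1, H2A and H2B promoters searched, and in 1 of 6 H4 promoters. No H4 gene had the order, so the CCAAT count of 8 of 8 follows from class alone. These counts are a description, and the grouping came from the values.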
